A study of Mus musculus with 15 samples.

Results

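The 9 genes described here are markers of oligodendrocytes, the cells that wrap axons of the central nervous system in myelin: Mbp, Mobp, Cnp, Mal, Cldn11, Mag, Mog, Olig1 and Olig2. They were chosen by name, as genes long used to mark the lineage, but with earlier results of these data known. All rows that carried 1 of the 9 names among the 23589 named loci of the deposited table were taken. This gave 9 loci, because Mbp, Mobp, Cnp, Mal, Cldn11, Mag and Mog each had a locus of their own, a merged locus carried both Olig1 and Olig2, and a further locus carried Olig2 alone. Olig1 had no locus of its own, and both Olig loci were listed with the same position and transcript, so how reads were divided between them is uncertain and they are not independent measurements.

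The study asked whether short-term dietary restriction (DR) leaves changes in gene expression that outlast it. Male C57BL/6 mice were fed ad libitum (AL) and killed at 5 months of age, or were restricted by 40% from 4 months of age for 1 month and killed at 5 months (DR), or were restricted in the same way, returned to AL feeding for 2 months and killed at 7 months (DR-AL). RNA of 5 mice was pooled per tissue and diet, so each of the 15 libraries (liver, epididymal fat, colon, hypothalamus and hippocampus under 3 diets) is 1 pool. The 6 hypothalamus and hippocampus libraries carry the results below. A diet comparison within a region therefore sets 1 library against another, with no replicate check. The DR-AL mice were older than both the AL and the DR mice. Diet and age therefore cannot be told apart in DR-AL against AL or in DR-AL against DR.

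Myelin is a stack of oligodendrocyte membrane that insulates axons and speeds conduction. Mbp, the myelin basic protein, and Mobp hold the cytoplasmic faces of the stacked membrane together, while Cnp, an enzyme that binds the cytoskeleton, keeps the cytoplasmic channels of the sheath open. Mal is a proteolipid of membrane sorting, and Cldn11 forms the tight junctions between the layers. Mag lies on the membrane next to the axon and Mog on the outer surface of the sheath. Olig1 and Olig2 are transcription factors that set up the lineage and are made by precursor cells as well as by mature oligodendrocytes. Both hypothalamus and hippocampus are mostly grey matter, but each borders on heavily myelinated tracts.

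The RefSeq promoter table of build GRCm38.p6 held 9 start regions (250 bases before to 50 bases after a transcript start) for 7 of the 9 genes, 3 of them for Mag and 1 each for Mal, Cldn11, Mobp, Cnp, Olig2 and Mog. The 3 sequences below, each the 250 bases before a transcript start, are shown because all 3 genes changed in the hypothalamus after DR-AL and because their upstream regions hold words bound by known factors of the lineage. CTGGCAC and CTGGTAC are forms of the word bound by Myrf, the factor that switches on myelin genes, and ACAAAG is a word bound by the SOX family, to which Sox10 belongs. In Cnp and Mag the capitals mark CTGGCAC, and in Mobp they mark CTTTGT, which is ACAAAG on the other strand. The Cnp sequence lies on the plus strand at chr11:100574689-100574938, the Mag sequence on the minus strand at chr7:30914923-30915172 and the Mobp sequence on the plus strand at chr9:120149492-120149741, all written 5′ to 3′ on the strand of the gene. The start used for Mag and Mobp is that of the RefSeq gene, and the one for Cnp lies 30 bases inside it.
Cnp: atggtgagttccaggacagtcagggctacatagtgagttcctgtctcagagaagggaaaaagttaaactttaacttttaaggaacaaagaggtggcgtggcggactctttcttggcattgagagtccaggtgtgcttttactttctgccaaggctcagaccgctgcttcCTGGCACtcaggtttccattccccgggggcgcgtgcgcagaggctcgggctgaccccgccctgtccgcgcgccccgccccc
Mag: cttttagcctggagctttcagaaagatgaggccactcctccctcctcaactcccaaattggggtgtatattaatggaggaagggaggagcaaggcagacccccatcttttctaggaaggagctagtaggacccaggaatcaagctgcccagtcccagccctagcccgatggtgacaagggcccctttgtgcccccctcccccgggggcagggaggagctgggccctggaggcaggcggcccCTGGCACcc
Mobp: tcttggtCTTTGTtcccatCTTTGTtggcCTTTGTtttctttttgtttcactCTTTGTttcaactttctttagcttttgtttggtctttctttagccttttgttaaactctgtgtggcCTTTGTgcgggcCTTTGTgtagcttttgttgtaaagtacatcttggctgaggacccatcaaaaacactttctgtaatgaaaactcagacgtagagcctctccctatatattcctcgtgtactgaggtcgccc
On either strand, CTGGCAC occurred in 3 of the 9 start regions (that of Cnp, with its first base at position -81 from the transcript start, and 2 overlapping regions of Mag, at position -9 in the one shown), against 5.01% of all 32851 start regions of the same length. CTGGTAC occurred in 1 of 9, that of Mog, against 2.24% of all, and ACAAAG in 4 of 9 (Cnp, the same 2 of Mag, and Mobp), against 18.7% of all. The Mobp region held 6 copies of ACAAAG, all on the opposite strand. The E-box word CAGCTG, a form of the sites bound by Olig2 and other basic helix-loop-helix factors, was in none of the 9 and in 16.3% of all. A match is a run of letters and not a measured site.

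The 6 brain libraries held 25159857 to 40500130 counts on named loci. The region labels were checked against marker genes. Slc17a7, the glutamate transporter of cortical and hippocampal neurons, lay between 1200 and 1312 in hippocampus and between 1.95 and 35.0 in hypothalamus, in counts per 1000000 counts on named loci (CPM), and Rax, a gene of hypothalamic tanycytes, at 2.08 to 9.94 CPM in hypothalamus and at most 0.032 CPM in hippocampus. The hypothalamus libraries differed from each other in genes of neighbouring tissue. Slc17a7 was at 1.95, 35.0 and 11.8 CPM in AL, DR and DR-AL, and Prkcd, a gene of thalamic neurons, at 11.5, 13.2 and 47.4 CPM. In hippocampus, Ttr, the transthyretin of the choroid plexus, was at 2693, 1641 and 2603 CPM in AL, DR and DR-AL. Lists of genes of such tissues are given beside the diet results below.

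On the per-length scale of the deposited FPKM values, Mbp (GRCm38 chr18, 82475091 to 82585637) stood far above the other loci, at 432 to 1061 FPKM over the 6 brain libraries, and was among the 24 highest of all named loci in every one of them. Mobp followed at 102 to 257 FPKM. Mal, at 42.4 to 103 FPKM, and Cnp, at 55.2 to 94.7 FPKM, could not be ordered, since they changed places between libraries. Cldn11, at 30.4 to 71.7 FPKM, and the merged Olig1/Olig2 locus, at 36.2 to 46.1 FPKM, changed places likewise. Mag, at 21.7 to 41.4 FPKM, was below both in each of the 6 libraries, and Mog, at 12.5 to 25.9 FPKM, below Mag, although the ranges over libraries overlapped. The Olig2 locus, at 5.71 to 8.17 FPKM, was the lowest in each of the 6 libraries. Together the 9 loci took 0.299% to 0.474% of all counts on named loci, and Mbp alone made up 61.8% to 66.7% of that share. The members did not vary as a single block: log2 CPM of Mbp, Mal, Cldn11 and Mog correlated pairwise at Pearson's r of 0.86 to 0.99 across the 6 libraries, Cnp and Mag with each other at 0.97 and the 2 Olig loci at 0.98, while either Olig locus correlated with Mbp, Mal, Cldn11 and Mog at -0.31 to -0.05. These values describe 6 libraries that share scaling and, in pairs, their mice, and they mix the difference between regions with that between diets. Within hypothalamus all 9 loci were highest in DR-AL, and within hippocampus all 9 were lower in DR than in AL.

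**Figure D1:**
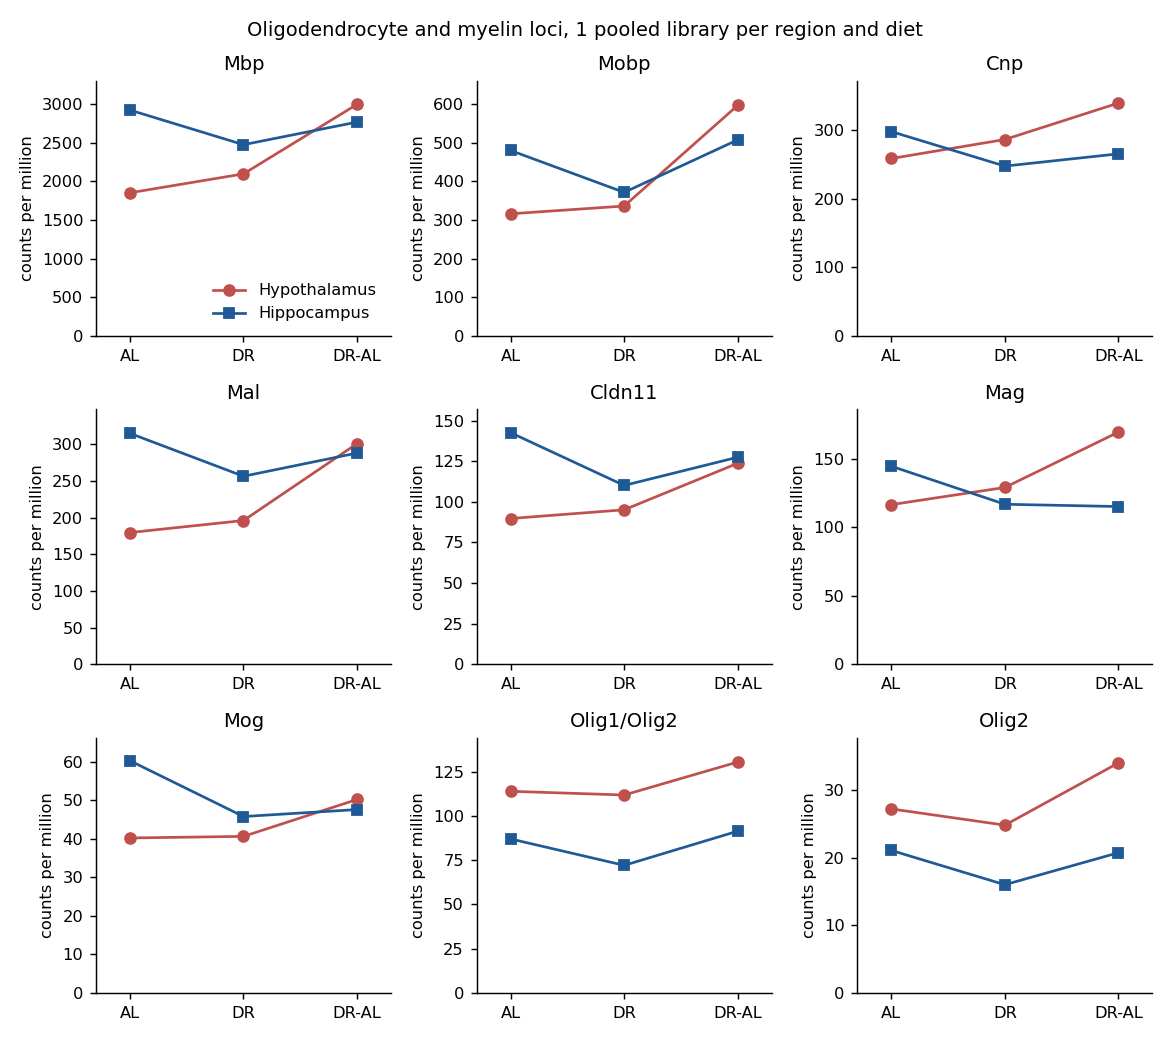
CPM (vertical axes, from 0) of the 9 loci in the hypothalamus (circles) and hippocampus (squares) under AL, DR and DR-AL feeding, with 1 pooled library per point and lines only to guide the eye. In hypothalamus every locus is highest in the DR-AL library, and in hippocampus every locus but Mobp and the merged Olig locus is highest in the AL library.

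In the hypothalamus, the 9 loci were more abundant after DR-AL than under AL, while DR alone left them within the fold threshold. The summed level of the 9 loci was 2995 CPM under AL, 3317 CPM under DR and 4742 CPM under DR-AL, which is a ratio of 1.11 for DR and of 1.58 for DR-AL over AL. Without Mbp, the DR-AL ratio was 1.53. Fewer oligodendrocytes and less RNA per oligodendrocyte cannot be told apart in bulk tissue, and neither can more of either. A locus was called changed, after the study's methods, when a Z test of square-root-transformed counts passed an adjusted p of 0.05 and the higher level was at least 25% above the lower. That test compares 2 libraries and not 2 conditions.

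Mobp, which compacts the sheath, was at 316, 336 and 597 CPM in the AL, DR and DR-AL libraries of the hypothalamus. The DR-AL over AL ratio of 1.89 (95% counting interval 1.84 to 1.93) was the highest of the 9. Mal, the sorting proteolipid, was at 180, 196 and 301 CPM, a ratio of 1.67 (1.62 to 1.73). Both were close to the AL value under DR and rose in the DR-AL library. Mbp itself was at 1852, 2097 and 2996 CPM, a ratio of 1.62 (1.60 to 1.63). Mag, on the face of the sheath that meets the axon, was at 117, 129 and 169 CPM, a ratio of 1.45 (1.39 to 1.52). These 2 were also highest in DR-AL and lowest in AL. Cldn11 was at 89.7, 95.1 and 124 CPM, a ratio of 1.38 (1.31 to 1.45), and Cnp at 259, 287 and 340 CPM, a ratio of 1.31 (1.27 to 1.35).

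The remaining 3 loci did not pass the fold threshold, which lies at 0.3219 on the log2 scale, although all 3 had their highest level in DR-AL. Olig2 was at 27.2, 24.8 and 34.0 CPM, with a log2 ratio of 0.3216 for DR-AL over AL, and Mog at 40.2, 40.6 and 50.2 CPM, with a log2 ratio of 0.3198, so both lay just under it. The merged Olig1/Olig2 locus was at 114, 112 and 130 CPM, with a log2 ratio of 0.20. Thus 6 of 9 loci rose from AL to DR-AL and none fell, where 6.06% of 19320 loci rose. The median log2 ratio of the 9 was 0.46, against -0.03 over all loci tested and -0.02 over the 12869 loci with a mean of at least 100 counts, 90% of which lay between -0.49 and 0.40. With an assumed coefficient of variation of 0.1 between pools in edgeR's exact test, 3 of the 6 stayed past the threshold, and these were Mobp, Mal and Mbp. With DESeq size factors or TMM factors in place of totals, Mog and Olig2 passed as well, at log2 ratios of 0.35 with the former.

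In DR against AL, 0 of 9 loci were called in the hypothalamus, where 7.05% of all loci were called in either direction. Their log2 ratios ran from -0.13 (Olig2) to 0.18 (Mbp), with a median of 0.09, against 0.01 over all loci tested. In DR-AL against DR, 6 of 9 rose and none fell, where 2.82% of all loci rose. Mobp again had the largest log2 ratio, 0.83, followed by Mal at 0.62, Mbp at 0.51, Olig2 at 0.45, Mag at 0.39 and Cldn11 at 0.38. Cnp (0.25), Mog (0.31) and Olig1/Olig2 (0.22) stayed under the threshold. The 3 comparisons share libraries and are not independent.

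**Figure D2:**
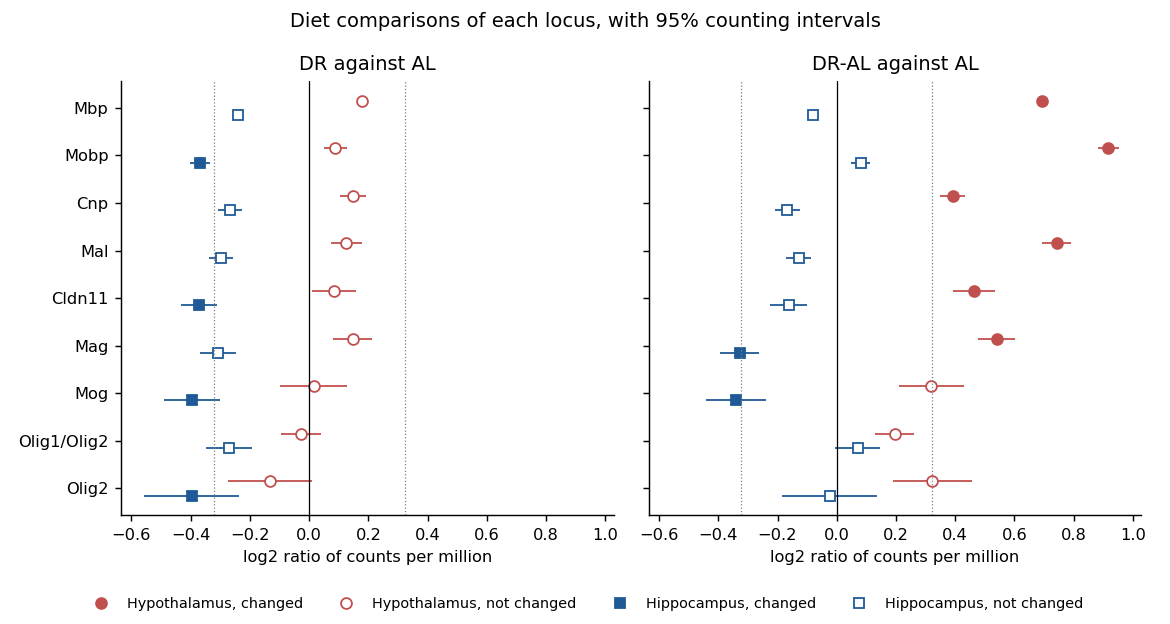
Log2 ratio of CPM (horizontal axis) of each locus for DR over AL and DR-AL over AL in hypothalamus (circles) and hippocampus (squares), with filled symbols for loci that passed both the Z test and the fold threshold and bars for the 95% interval of counting error alone. Dotted lines mark the fold threshold, beyond which 6 hypothalamus loci lie to the right in DR-AL and 4 hippocampus loci to the left in DR.

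The other genes of the sheath were examined as lists. Of 19 other myelin sheath proteins, 10 rose and none fell in the hypothalamus in DR-AL against AL, with a median log2 ratio of 0.34. Hapln2, a link protein of the node of Ranvier, had the largest, at 25.2, 32.6 and 57.3 CPM in AL, DR and DR-AL, a log2 ratio of 1.18 for DR-AL. Ermn, a cytoskeletal protein of mature oligodendrocytes, was at 42.6, 57.1 and 78.6 CPM, a log2 ratio of 0.88. Both had already passed the threshold in DR against AL, unlike any of the 9 loci. Opalin, a marker of mature oligodendrocytes, did not pass, at 18.7, 15.4 and 18.4 CPM.

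Of 13 genes of myelin lipids and oligodendrocyte metabolism, 7 rose and none fell, led by Apod, a lipid-binding protein, at 123, 199 and 232 CPM. Ugt8a, the enzyme that makes galactocerebroside, passed in both DR (log2 ratio 0.44) and DR-AL (0.34). Cholesterol synthesis supplies the main lipid of myelin. In that list 0 of 12 measured genes rose or fell in DR-AL against AL, with a median log2 ratio of -0.07. Of all 19320 loci, 2914 were called in either direction. Hmgcs1 was not measured: the locus used for it held 0 counts in the brain libraries. The other of the 2 loci that carry its name was not used, so its level is not known from these values. Of 11 oligodendrocyte transcription factors, 5 rose and none fell in DR-AL. Sox10, the factor that maintains the lineage, was at 40.5, 45.4 and 54.8 CPM and passed with a log2 ratio of 0.44.

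Of 11 genes of oligodendrocyte precursors, none rose and 2 fell in DR-AL against AL, with a median log2 ratio of -0.08. Among all 19320 loci 6.06% rose, so a count of none among 11 is close to that share. The 2 that fell were Vcan, at 29.8, 24.3 and 20.2 CPM, and Bmp4, at 2.33, 4.34 and 1.31 CPM. Pdgfra, the growth factor receptor of precursors, was at 67.7, 65.0 and 67.5 CPM in hypothalamus, and Cspg4, the NG2 proteoglycan, at 40.7, 31.7 and 34.5 CPM. The summed level of the 6 Schwann cell genes was 7.0 to 16.5 CPM in the 6 brain libraries.

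Genes of other cells and of neighbouring nuclei also differed between the hypothalamus libraries. For the counts below, 2914 of all 19320 loci were called in DR-AL against AL, and 1171 of these were higher. A count of 1 lower gene in a list of 10 is close to the share of all loci. Of 10 thalamic neuron genes, a list drawn up after the values had been seen, 8 were higher in DR-AL than in AL by the same rule. The summed level of the list was 794, 886 and 1174 CPM. Lef1 and Slc17a6 were not called, Slc17a6 being at 300, 293 and 299 CPM. The list was not particular to thalamus, since it summed to 865, 812 and 799 CPM in the hippocampus libraries. Cplx1 was at 144, 216 and 343 CPM in hypothalamus and at 615, 579 and 562 CPM in hippocampus. Tcf7l2, which is expressed in oligodendrocytes and strongly in thalamic neurons, was at 25.9, 20.6 and 59.8 CPM. Neuronal genes rose in 4 of 10 cases, with sums of 5541, 5768 and 6361 CPM, and endothelial genes in 4 of 6, with sums of 133, 156 and 183 CPM. Of 6 genes of ependymal cells and tanycytes 1 rose and 3 fell, with sums of 158, 130 and 79.5 CPM. Rax, at 9.94, 7.15 and 2.08 CPM, and Col23a1, at 105, 70.7 and 28.8 CPM, fell, while Ccdc153, a gene of ciliated ependymal cells, rose, at 6.30, 9.74 and 8.68 CPM. Of 10 astrocyte genes 2 fell, Gfap being at 276, 250 and 137 CPM and Aqp4 at 132, 135 and 92.9 CPM, and of 10 microglial genes 1 fell, with sums of 375, 335 and 333 CPM. Of 9 genes of telencephalic excitatory neurons 4 rose and 2 fell, with sums of 916, 946 and 725 CPM, and of 6 choroid plexus genes 3 fell, with sums of 71.8, 66.0 and 48.2 CPM. The part of a different share of neighbouring tissue in the member values was not tested.

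**Figure D3:**
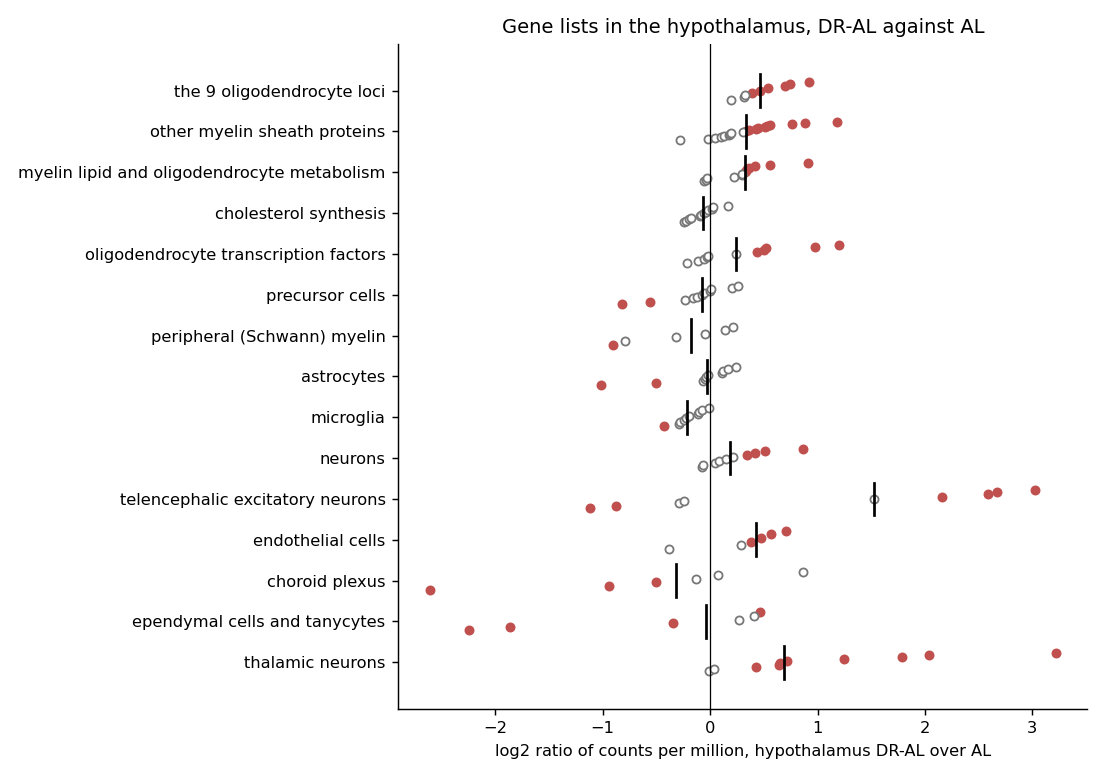
Log2 ratio of CPM in the hypothalamus, DR-AL over AL (horizontal axis), for each gene of each list, with filled points for genes that passed the Z test and the fold threshold, open points for the others and a black bar at the list's median. The 9 oligodendrocyte loci lie between 0.20 and 0.92, precursor genes have a median of -0.08 and the thalamic list, chosen after the values were seen, has a median of 0.68.

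In the hippocampus the members were lower under DR than under AL. Their summed level was 4471 CPM under AL, 3711 CPM under DR and 4231 CPM under DR-AL, which is a ratio of 0.83 for DR and of 0.946 for DR-AL over AL. All 9 log2 ratios of DR over AL were negative, from -0.40 (Olig2) to -0.24 (Mbp), with a median of -0.31 against -0.01 over all 18804 loci tested. By the same rule 4 of 9 fell, where 2.67% of all loci fell, and none rose. None of the 4 passed edgeR's exact test with a coefficient of variation of 0.1. On the deposited FPKM values none reached the fold threshold, with a median of the 9 loci of -0.21 where well-counted loci had a median of 0.12.

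Mog, the protein of the outer sheath, was at 60.2, 45.8 and 47.6 CPM in the AL, DR and DR-AL libraries of the hippocampus, a DR over AL ratio of 0.760 (95% counting interval 0.711 to 0.811). Olig2 was at 21.1, 16.0 and 20.7 CPM, a ratio of 0.760 (0.679 to 0.849). The Olig2 level was back near its AL value in the DR-AL library, and that of Mog was not. Cldn11 was at 143, 110 and 127 CPM, a ratio of 0.772 (0.740 to 0.806), and Mobp at 480, 372 and 508 CPM, a ratio of 0.774 (0.756 to 0.792). Mobp was the only member above its AL level in DR-AL apart from the merged Olig1/Olig2 locus, which was at 86.9, 72.0 and 91.3 CPM. Mag (145, 117 and 115 CPM), Mal (315, 257 and 288 CPM), Cnp (298, 248 and 266 CPM) and Mbp (2922, 2474 and 2767 CPM) did not pass the fold threshold in DR against AL.

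In DR-AL against AL, 2 of 9 loci fell in the hippocampus, where 2.16% of all loci fell, and none rose. They were Mog, with a log2 ratio of -0.34, and Mag, with -0.33, and the median of the 9 was -0.13. In DR-AL against DR, 3 of 9 rose, where 3.63% of all loci rose: Mobp by 0.45, Olig2 by 0.37 and Olig1/Olig2 by 0.34 on the log2 scale. Mag, at -0.02, was the only 1 of the 9 that was not higher in DR-AL than in DR.

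The wider lists moved with the members in part. Of 19 other myelin sheath proteins, 5 fell in DR and 6 fell and 1 rose in DR-AL against AL. Opalin was at 28.7, 20.8 and 18.3 CPM and passed in both. Of the genes of myelin lipids and metabolism, 5 of 13 fell in DR, 1 of which was Enpp2, at 1359, 809 and 1354 CPM, a gene that the choroid plexus also expresses strongly. Cholesterol synthesis went the other way, with 4 of 12 genes higher in DR than in AL and none lower. Of all 18804 loci, 758 were called in DR against AL, and 256 of these were higher. Enpp6, which marks newly formed oligodendrocytes, was at 12.7, 6.82 and 8.23 CPM. Of 11 transcription factors 1 fell, Tcf7l2 at 7.41, 4.87 and 5.41 CPM, and of 11 precursor genes 1 fell, Enpp6 itself, while Pdgfra was at 65.8, 65.5 and 79.1 CPM.

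All 6 choroid plexus genes fell in DR against AL in the hippocampus and all 6 rose in DR-AL against DR, with sums of 2916, 1782 and 2847 CPM. Their part in the lower member levels under DR was not tested. In the neuronal and astrocyte lists 0 of 10 genes were called in DR, where 758 of all 18804 loci were called. The sums were 9384 and 9252 CPM for neurons and 5720 and 5678 CPM for astrocytes in AL and DR.

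A fit across both regions estimated a diet change shared by hypothalamus and hippocampus. It did not test whether the change was the same in each. The quasi-likelihood test of edgeR, with region and diet as terms over the 6 libraries, found 0 of 9 loci at an adjusted p under 0.05 in DR against AL, where 1 of 15742 loci (0.00635%) passed, and 0 of 9 in DR-AL against AL, where 0 of 15742 (0%) passed. At an unadjusted p under 0.05 there was 1 of the 9 loci in each contrast, with 713 loci of all in DR and 1363 in DR-AL, and DESeq2 called 0 of the 9 in both, with 9 and 50 loci of all. Without the hippocampus DR-AL library, 3 of the 9 (Mal, Mbp and Mobp) passed in DR-AL against AL, together with 505 loci of all, the DR-AL estimate then resting on the hypothalamus library. The fitted log2 changes of the members ran from -0.27 to -0.04 for DR and from 0.00 to 0.51 for DR-AL, and the lowest adjusted p of a member was 0.945 and 0.559. Of the 9 loci, 7 had ratios of opposite sign in the 2 regions in DR against AL and 7 in DR-AL against AL. The 2 regions of a diet come from the same mice, so diet and pool cannot be told apart. The p-values of this fit rest on how far the diet differences disagree between the regions of the same mice, and not on a spread between animals.

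The regions themselves differed in most genes. Over the 3 pairs of libraries, 10702 of 15742 loci (68%) passed the edgeR test between hypothalamus and hippocampus, and 6 of the 9 members passed, so that the members were called about as often as all loci were. The 4 that were lower in hypothalamus, where 33.4% of all loci were lower, were genes of the sheath. Mal had a fitted log2 difference of -0.61 ± 0.16 (SE, n = 3 per region, adjusted p 0.0154 by edgeR), Cldn11 of -0.54 ± 0.12 (adjusted p 0.00812), Mbp of -0.49 ± 0.15 (adjusted p 0.0291) and Mog of -0.46 ± 0.13 (adjusted p 0.0182). Mobp, at -0.40 ± 0.15, missed the threshold with an adjusted p of 0.0593 in the edgeR test. Cnp, at -0.11 ± 0.11, and Mag, at -0.10 ± 0.16, did not pass. Both Olig loci were higher in hypothalamus, where 34.6% of all loci were higher, with 0.28 ± 0.06 for Olig1/Olig2 (edgeR, adjusted p 0.00609) and 0.34 ± 0.09 for Olig2 (edgeR, adjusted p 0.0143).

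These region differences depended on the scaling and on the diet pair. TMM scaling placed the median of all loci at 0.01, whereas library totals alone placed it at 0.24, and under totals the 2 Olig loci alone passed and Cnp and Mag were higher in hypothalamus. The deposited FPKM values placed the median of all loci at -0.28 and turned both Olig loci to lower in hypothalamus, neither passing, while all 7 sheath genes passed as lower. Relative to the median of all loci, the Olig loci were higher in hypothalamus under each scaling. In the AL pair the sum of the members in hypothalamus was 0.67 of that in hippocampus, in the DR pair 0.894 and in the DR-AL pair 1.12, by CPM of named loci. Mbp, for example, had a TMM-scaled log2 difference of -0.89 in the AL pair, -0.50 in the DR pair and -0.09 in the DR-AL pair, while Olig1/Olig2 had 0.16, 0.37 and 0.31. Without the DR pair 1 of the 9 loci passed (Cldn11), without the DR-AL pair all 9 passed, and without the AL pair 5 passed, Mbp no longer among them.

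**Figure D4:**
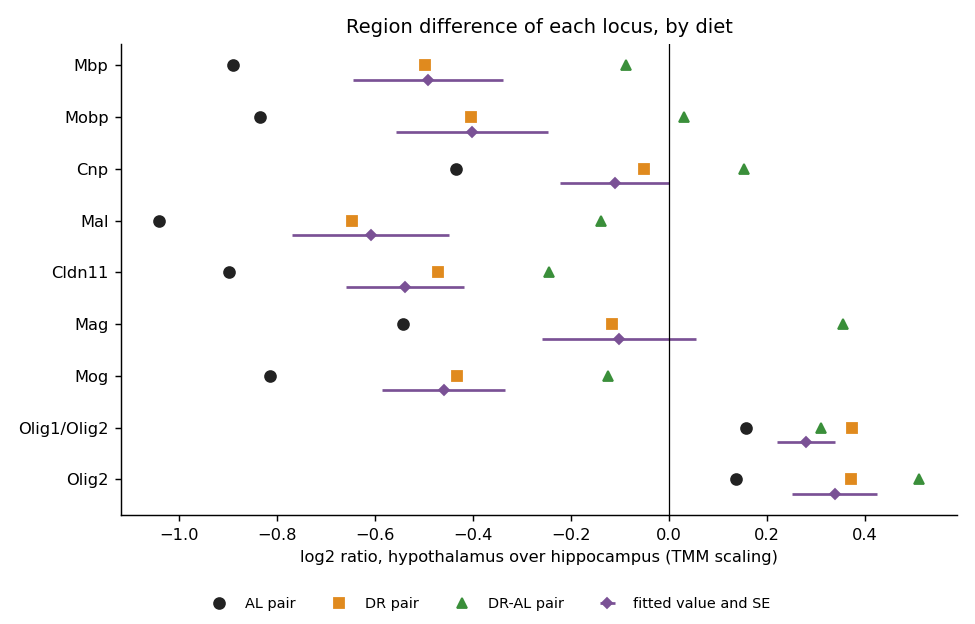
Log2 ratio of hypothalamus over hippocampus (horizontal axis, TMM scaling) of each locus in the AL, DR and DR-AL pair of libraries, and below them the fitted value over the 3 pairs with its standard error. For the 7 sheath genes the AL pair lies farthest to the left and the DR-AL pair farthest to the right, and both Olig loci lie to the right of 0 in all 3 pairs.

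Under TMM scaling and under totals, more precursor genes were higher than lower in hypothalamus, and under FPKM 3 were higher and 3 lower. Of all loci called between regions, 50.8% were higher under TMM, 69.4% under totals and 28.5% under FPKM. By the edgeR fit with TMM, 34.6% of all loci tested were higher and 33.4% lower, the shares to set beside each list count below. Of 11 precursor genes, 5 were higher and 2 lower in hypothalamus by the edgeR fit, with a median log2 difference of 0.25 (TMM). Of 19 other sheath proteins, 3 were higher and 7 lower, with a median of -0.29, and those 3 were Hapln2, Cntn2 and Nfasc, of which Cntn2 and Nfasc are also made by neurons. Among the transcription factors, Nkx2-2 was higher in hypothalamus by 1.75 ± 0.13, Nkx6-2 by 1.29 ± 0.07 and Tcf7l2 by 2.20 ± 0.32 (log2, SE), and Sox10 did not differ beyond its error, at 0.00 ± 0.10. Counts of lists moved with the scaling: under totals 7 of the 19 sheath proteins were higher and 2 lower, and under FPKM 2 were higher and 15 lower. Relative to the median of all loci, the list medians were steadier, at -0.30, -0.30 and -0.33 for the sheath proteins and 0.24, 0.24 and 0.23 for precursor genes under TMM, totals and FPKM, beside -0.41, -0.41 and -0.48 for the 9 members. Of the 13 lipid and metabolism genes, 3 were higher and 6 lower under TMM, 3 and 4 under totals, and none and 10 under FPKM. Of the 12 cholesterol synthesis genes 8 were higher and none lower under TMM, but none higher and 3 lower under FPKM. Microglial genes were lower in 10 of 10 cases under TMM and FPKM and in 7 under totals, and endothelial genes in 6 of 6 and in 3. Of 10 astrocyte genes, 3 were higher and 3 lower under TMM, 6 and 3 under totals, and 2 and 6 under FPKM.

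Among 11997 loci with a mean of at least 5 CPM over the 6 libraries, the pattern most like the mean of the standardised members was that of Zfp458, a zinc finger gene (Pearson's r of log2 CPM 0.992 over 6 libraries). It ran from 9.45 to 11.4 CPM, a narrow range. Bcas1, which marks oligodendrocytes that are starting to myelinate, came next at 0.987, with 136, 148 and 230 CPM in hypothalamus and 193, 149 and 180 CPM in hippocampus for AL, DR and DR-AL. The further 8 were Pcolce2, Ict1, Plin3, Ahcyl1, Itpk1, Tprn, Glrx and 4930452B06Rik, with r of 0.951 to 0.980. Of the members themselves, Mobp was closest to their mean at 0.923 and Olig1/Olig2 farthest at 0.332. With 6 libraries and so many loci, values of this size are a description of these libraries.

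Outside the brain the 9 loci separated into those that were silent and those that were not. Mog reached 1 count at most in any of the 9 liver, fat and colon libraries, and the Olig2 locus 2 counts, while both were above 16 CPM in every brain library. Mobp stayed at or below 0.628 CPM and Mag at or below 3.66 CPM. The merged Olig1/Olig2 locus, by contrast, held 79 to 235 counts in the 3 liver libraries, where the Olig2 locus held 2 at most. Mbp reached 79.9 CPM in colon, Mal 71.5 CPM in colon, where it is known from epithelial cells, and Cnp 24.4 CPM in fat. In fat, Cldn11, which is also the tight junction protein of Sertoli cells in the testis, was at 0.610 CPM in AL, 9.24 CPM in DR and 29.0 CPM in DR-AL. Prm2, a protamine of sperm, was at 1.64, 171 and 771 CPM in the same libraries and its part in the Cldn11 values was not tested.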

How the data were processed

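RNA of 5 mice was pooled per tissue and diet, depleted of ribosomal RNA and sequenced as strand-specific paired-end libraries. The authors trimmed and aligned the reads with Strand software and removed duplicates, and their raw counts per locus were deposited in 1 table for 15 libraries. The same table holds FPKM values made by the authors, whose scaling between libraries is not given in the sources used here. The paper names mm10, whereas the submitters' processing notes name mm9 and DESeq2, and the listed positions of 7 of the 9 member loci do not overlap their GRCm38 positions, so coordinates are those of RefSeq for GRCm38. Unnamed loci (0.258% to 1.39% of counts) were left out of library totals.

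Members and gene lists were chosen with earlier results of these data known, and the thalamic list after its values were seen. Besides the members, the genes named are the first of each list, those with the largest region differences and those changed in both hypothalamus comparisons with AL, other genes being named after their values were seen. Some genes that this rule names are not reported here. Regions were compared with edgeR 4.0.16 (quasi-likelihood test, region and diet as terms, TMM factors, low loci filtered, Benjamini-Hochberg adjustment over 15742 loci). Diets within a region were compared by the Z test of the study's methods, with ratios on counts scaled to the mean total plus 0.5 and exact 95% intervals that cover counting error only. Alternatives used DESeq2 1.42.0, limma 3.58.1 on log2 FPKM, other scalings, thresholds and left-out libraries. The tests were tried on simulated counts with 200 loci changed 2-fold. The region fit found 198 of them, with 8 false calls. Its simulation had 1 common dispersion and no diet effect. It cannot show how often differences under 2-fold, such as those of the members, are found. The Z test found 193 in hypothalamus and 191 in hippocampus, with 9 false calls in each. The Z test simulation held counting error only, so it cannot show how spread between pools affects the diet calls.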

Additional observations from a re-analysis of the deposited data

Results flagged for a closer look

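By the Z test on library totals, Mag was the 1 member called in opposite directions in the 2 regions under the same contrast: in DR-AL against AL its log2 ratio was 0.54 in the hypothalamus (117 against 169 CPM in AL and DR-AL) and -0.33 in the hippocampus (145 against 115 CPM). Each value compares 2 libraries, and the difference between the regions was not tested. With the size factors of DESeq, with TMM factors and with totals that leave out the 10 most abundant loci, Mog was called in opposite directions as well. Mag was called in neither region by edgeR's exact test with a coefficient of variation of 0.1. On FPKM, by the fold threshold without a test, Mag passed in the hypothalamus alone.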

How the results depend on the processing

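With 1 pooled library per region and diet, the diet ratios have no replicate check, and counting intervals understate their error. The region fit pairs the 2 regions of a diet through its diet term, and without that term 5 of the 9 members were called in place of 6, Olig2 being the one lost (edgeR, adjusted p 0.0645). The count of members called between regions, 6 of 9 in the fit reported, was 2 with library totals alone, 1 with both DR libraries left out and 1 to 9 when single libraries were left out (1 without either DR library, 9 without either DR-AL library). In DR-AL against AL over both regions it was 0 to 3 when single libraries were left out, and 3 without the hippocampus DR-AL library. Cnp turned to higher in hypothalamus with library totals alone (log2 difference 0.12) and with both AL libraries left out (0.055), and Mag likewise (0.13 and 0.12). With single libraries left out, Cnp ran from -0.25 to 0.055 and Mag from -0.34 to 0.12. On log2(FPKM + 0.1) and log2(FPKM + 1), the merged Olig1/Olig2 locus turned to -0.15 under both and Olig2 to -0.081 and -0.070.

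Within the hypothalamus, 6 members were called in DR-AL against AL, but 3 with edgeR's exact test at a coefficient of variation of 0.1, 3 at a fold change of 1.5 and 0 at a fold change of 2. In DR-AL against DR the same alternatives gave 1, 2 and 0 in place of 6. Within the hippocampus they gave 0, 0 and 0 in each of the 3 comparisons. The FPKM values with pseudocount 0.1 or 1 were judged by the fold threshold without a test. In hippocampus FPKM gave 0 and 0 for DR against AL, 0 and 0 for DR-AL against AL, and 1 and 1 for DR-AL against DR. On FPKM, Mog turned to -0.023 and -0.021 for DR over AL in hypothalamus, and Mal to 0.053 and 0.052 for DR-AL over AL in hippocampus. TMM factors (tried after seeing the data), the scaling of DESeq, totals that leave out the 10 most abundant loci and the filter on mean counts moved no count of members by more than 1.5 times.

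The share of called loci that were higher moved with the scaling: between regions it was 50.8% with TMM, 69.4% with totals and 28.5% with FPKM. In the hippocampus it was 33.8% for DR against AL by the Z test and 62.2% by FPKM with pseudocount 0.1, and in the hypothalamus 40.2% and 50.3% for DR-AL against AL and 29.3% and 48.0% for DR-AL against DR.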
